A study of Mus musculus with 16 samples.

Results

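Toll-like receptors are the innate immune receptors through which microglia and macrophages sense microbial products and the debris of injured tissue. The mRNA levels of 8 of them (Tlr1, Tlr2, Tlr3, Tlr4, Tlr7, Tlr8, Tlr9 and Tlr13), of the co-receptor gene Cd14 and of the adaptor gene Myd88 were followed in the mouse neocortex opposite a cortical lesion. These 10 genes were chosen by symbol and not by a limit on their measured values, though earlier results of these data were known. They are 10 of the 20134 genes that had a value on all arrays, and each was read by the brightest probe whose accession belongs to the gene.

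All mice were C57BL/6J, and the tissue was the right neocortex rostral from bregma, on the side that was not operated on. Left cortical hemisuction, in which the sensorimotor cortex is aspirated, was done at postnatal day 7 (P7) in the neonatal group (NBH, NBI in the sample labels) or in adult mice (ABH, ABI in the labels), with a larger aspirated area in the adults. NBH tissue was taken 1 week later at 14 days of age and 4 weeks later at 35 days. ABH tissue was taken at 11 weeks and 15 weeks of age, that is 1 and 4 weeks after surgery (the sampling scheme of the study gives a slightly earlier age for the second). Control tissue was taken at 7 days (P7), 14 days (P14), 35 days (P35) and 10 weeks. RNA of 4 male mice was pooled for each group, and each of the 8 pools was hybridized to 2 Agilent arrays, one after Cy3 and the other after Cy5 labeling, giving 16 arrays. With 1 RNA pool per condition, the spread between the 2 dyes is technical, the spread between animals is unknown, and no p-value can be given. All control arrays lay in the upper row of their chip and all NBH and ABH arrays in the lower row, so row and surgery cannot be told apart. Aspirated area and age at surgery cannot be told apart either.

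Toll-like receptors are dimers with a ligand-binding ectodomain and an intracellular TIR domain. TLR1, TLR2 and TLR4 act at the cell surface on bacterial lipoproteins and lipopolysaccharide, with CD14 handing lipid ligands to them, whereas TLR3, TLR7, TLR8, TLR9 and TLR13 act in endosomes on nucleic acids. All of them except TLR3 can signal through the adaptor MyD88 towards NF-κB, and in the brain they are found mainly on microglia and on macrophages.

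A level below is the log2 of the background-corrected signal minus the log2 75th percentile of the same array, so 0 is the 75th percentile of the gene spots. Levels of different genes come from different probes and are not set against each other. A change is the level in the surgery pool minus that in the control pool, taken dye by dye, and is given as the mean ± SD of the 2 dyes. A gene was called higher when both dyes gave at least 1.5-fold (a log2 change of 0.585) and lower when both gave at most 0.75-fold (-0.415). A gene was compared when 1 or both of the pools gave a signal well above background with both dyes. Of the 10 genes, 9 could be compared in every comparison. Tlr8 was well above background on only 2 of 16 arrays and could not be compared.

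The promoters of the 3 receptor genes that were higher together in ABH 1 week and are in the promoter table are shown first, with those of Myd88 and Tlr9, which did not reach the limit. Each run holds the 250 bases upstream of a RefSeq transcription start, 5′ to 3′ on the gene's strand, in the GRCm38.p6 build. The positions are chr3:83841609-83841858 (minus strand) for Tlr2, chr5:64933559-64933808 and chr5:64932700-64932949 (minus strand) for the pair of Tlr1 starts, chrX:106143025-106143274 (plus strand) for Tlr13, chr9:119340019-119340268 (minus strand) for Myd88 and chr9:106222348-106222597 (plus strand) for Tlr9. Capitals mark matches, on either strand, to any of 4 motif forms.
Tlr2: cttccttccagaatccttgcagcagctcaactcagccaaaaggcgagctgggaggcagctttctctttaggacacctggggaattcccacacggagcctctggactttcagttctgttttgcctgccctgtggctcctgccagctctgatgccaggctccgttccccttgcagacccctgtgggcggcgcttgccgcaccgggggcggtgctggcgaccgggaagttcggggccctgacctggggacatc
Tlr1, start 1: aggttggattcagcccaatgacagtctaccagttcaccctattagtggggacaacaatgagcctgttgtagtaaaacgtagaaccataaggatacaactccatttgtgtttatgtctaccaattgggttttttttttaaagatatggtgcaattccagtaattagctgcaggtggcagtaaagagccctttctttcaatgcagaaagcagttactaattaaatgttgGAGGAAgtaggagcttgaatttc
Tlr1, start 2: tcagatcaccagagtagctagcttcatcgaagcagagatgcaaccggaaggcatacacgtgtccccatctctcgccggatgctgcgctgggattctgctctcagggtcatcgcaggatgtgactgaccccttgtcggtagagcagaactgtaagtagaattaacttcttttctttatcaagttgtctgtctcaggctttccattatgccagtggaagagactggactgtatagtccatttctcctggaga
Tlr13: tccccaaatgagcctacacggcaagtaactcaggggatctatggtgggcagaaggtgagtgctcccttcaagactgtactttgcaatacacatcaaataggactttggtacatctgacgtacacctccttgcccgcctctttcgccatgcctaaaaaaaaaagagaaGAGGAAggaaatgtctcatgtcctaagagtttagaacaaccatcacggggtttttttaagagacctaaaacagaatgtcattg
Myd88: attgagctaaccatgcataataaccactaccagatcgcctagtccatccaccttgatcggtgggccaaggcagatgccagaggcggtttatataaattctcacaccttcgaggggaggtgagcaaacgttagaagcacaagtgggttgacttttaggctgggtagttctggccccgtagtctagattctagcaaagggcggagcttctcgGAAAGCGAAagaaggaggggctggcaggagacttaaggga
Tlr9: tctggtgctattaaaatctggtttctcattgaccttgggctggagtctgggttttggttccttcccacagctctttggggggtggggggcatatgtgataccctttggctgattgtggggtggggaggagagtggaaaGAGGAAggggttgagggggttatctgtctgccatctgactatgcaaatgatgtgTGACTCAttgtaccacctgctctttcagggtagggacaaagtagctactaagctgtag

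The motif forms searched were GGGANNTTCC for NF-κB, GAGGAA for the myeloid factor PU.1, GAAANNGAA for interferon response factors and TGAGTCA for AP-1. The PU.1 form was found in the first Tlr1 promoter, 23 bases before the start, in Tlr13, 83 bases before it, and in Tlr9, 112 bases before it. It was also found in 23.3% of the 32851 promoters in the table. The interferon response form lay 40 bases before the Myd88 start and was found in 7.13% of all promoters. The AP-1 form lay 58 bases before the Tlr9 start, on the opposite strand, and was found in 4.46%. No form matched in Tlr2 or in the second Tlr1 promoter, which says only that these letters are not in these windows. The Tlr2 run does hold gggaattccc, which is close to the NF-κB form searched but does not match it. Looser forms of the motifs were not searched, so the lack of a match does not mean that Tlr2 has no NF-κB site. Among the other genes, the NF-κB form, found in 1.21% of all promoters, matched once in Tlr3, and the PU.1 and interferon response forms matched once each in Tlr8. The forms can share letters, but none of these matches overlapped. Tlr4, Tlr7 and Cd14 had no entry.

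**Figure D1:**
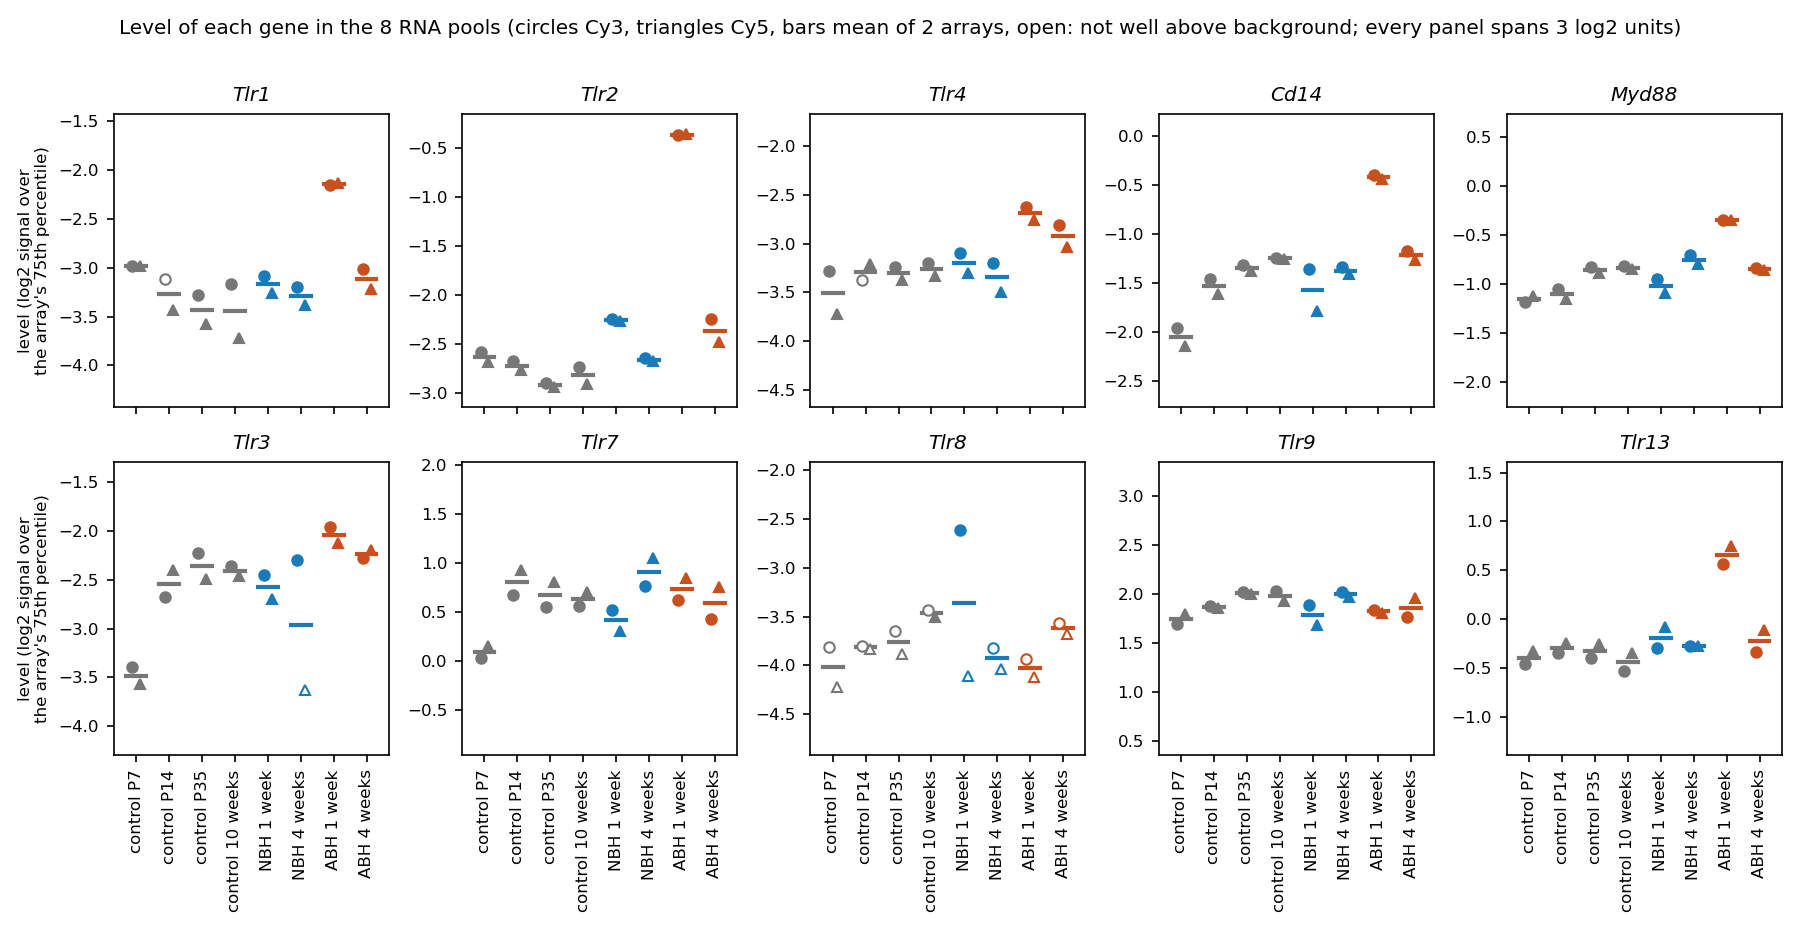
Level of each gene (y axis, log2 signal relative to the array's 75th percentile) in the 8 RNA pools (x axis), with circles for Cy3, triangles for Cy5, bars for the mean of the 2 arrays and open symbols for signals not well above background. Every panel spans the same number of log2 units. The ABH 1 week pool is the highest for Tlr1, Tlr2, Tlr3, Tlr4, Tlr13, Cd14 and Myd88, and the P7 control is the lowest for Tlr3, Tlr4, Tlr7, Tlr9, Cd14 and Myd88.

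Tlr2 codes for the receptor that pairs with TLR1 or TLR6 on lipoproteins, and it had the largest change of the 9 genes. Its levels with Cy3 and Cy5 were -2.59 and -2.69 in the P7 control, -2.68 and -2.77 at P14, -2.90 and -2.94 at P35 and -2.73 and -2.91 at 10 weeks. They were -2.25 and -2.27 in NBH 1 week, -2.65 and -2.68 in NBH 4 weeks, -0.36 and -0.36 in ABH 1 week and -2.25 and -2.48 in ABH 4 weeks. ABH 1 week therefore stood above every other pool with both dyes, 1.90 above the next pool, NBH 1 week. The change from the 10 weeks control was 2.46 ± 0.12, or 5.50-fold, and ranked 39 of 16320 genes from the top. It was 2.84 with an offset of 0, 3.08 with the scanner software's processed signal and 3.18 with the deposited value table, which is not scaled between arrays. Tlr2 is printed in 10 spots on each array, of which 8 to 10 were kept. The SD of their log2 values within an array was 0.05 to 0.15, and the lowest ABH 1 week spot (-0.53) lay above the highest spot of any other pool (-2.02). Such spots are repeat readings of the same pool and are no replicates of the condition. In the other comparisons the Tlr2 change was smaller and missed the limit, although both dyes gave more signal after surgery each time. It was 0.47 ± 0.05 (1.38-fold) in NBH 1 week against P14, 0.26 ± 0.01 (1.20-fold) in NBH 4 weeks against P35 and 0.46 ± 0.05 (1.37-fold) in ABH 4 weeks. With the processed signal, which carries no offset, the NBH 1 week value was 0.67 and passed the limit with both dyes.

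Tlr1, the partner of Tlr2, was dim but moved the same way. In ABH 1 week its levels were -2.16 and -2.14, against -3.16 and -3.72 in the 10 weeks control. The change was 1.29 ± 0.41 (2.45-fold), with 1.01 from Cy3 and 1.58 from Cy5, so the dyes agreed on the direction but less well on the size. The size also rests on the background correction, at 1.82 with an offset of 0, 2.41 with the processed signal and 2.52 with the value table. The remaining pools read between -3.58 and -2.98 on their arrays, so ABH 1 week did not overlap any of them. The change was 0.32 ± 0.24 in ABH 4 weeks, 0.10 ± 0.10 in NBH 1 week and 0.14 ± 0.09 in NBH 4 weeks, none past the limit. In the P14 control Tlr1 was well above background on 1 of 2 arrays. Tlr1 and Tlr6 are close paralogs, and whether the Tlr1 probe also reads Tlr6 was not tested. The probe of Tlr6 itself gave 0.62 ± 0.41 in ABH 1 week, with the control well above background on 1 of 2 arrays, and was not called.

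Tlr4, the lipopolysaccharide receptor, came just short of the limit. Its levels were -2.62 and -2.76 in ABH 1 week and -3.20 and -3.33 in the 10 weeks control. The change was 0.57 with each dye (1.49-fold). ABH 4 weeks, with -2.81 and -3.03, lay between these pools, and its change was 0.35 ± 0.07 (1.27-fold). In NBH the dyes disagreed in sign at both times, with means of 0.09 and -0.04. Tlr4 is dim on this array, and its P14 control was well above background on 1 of 2 arrays. With an offset of 0 in place of 50, and under 5 other settings given in the closing section, Tlr4 passed the limit in ABH 1 week. Its change was 0.86 with an offset of 0, 1.17 with the processed signal and 1.27 with the value table.

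Cd14, the co-receptor that binds lipopolysaccharide and presents it to TLR4, was higher in ABH 1 week. Its levels were -0.40 and -0.44 there, against -1.24 and -1.25 in the 10 weeks control. The change was 0.83 ± 0.02 (1.77-fold). At 4 weeks the ABH levels, -1.17 and -1.26, overlapped those of the control, and the change was 0.03 ± 0.05. The NBH changes were -0.04 ± 0.19 at 1 week and -0.03 ± 0.01 at 4 weeks. Among the controls the Cd14 level was higher at each later age, at -1.96 and -2.14 at P7, -1.46 and -1.61 at P14 and -1.32 and -1.37 at P35, with the 10 weeks values above these.

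Tlr13, the receptor for bacterial ribosomal RNA, was the endosomal receptor that passed the limit. Its levels were 0.57 and 0.75 in ABH 1 week and -0.53 and -0.34 in the 10 weeks control. Both dyes gave a change of 1.10 (2.14-fold). All other pools read between -0.53 and -0.08, so no array of another pool reached those of ABH 1 week. The change was 0.21 ± 0.03 in ABH 4 weeks, 0.11 ± 0.08 in NBH 1 week and 0.05 ± 0.10 in NBH 4 weeks. In the channel without labeled RNA, 1 of its 16 spot readings was also well above background.

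Tlr3, which senses double-stranded RNA and signals without MyD88, gave a change of 0.37 ± 0.05 (1.29-fold) in ABH 1 week, below the limit. Its levels were -1.96 and -2.13 in ABH 1 week and -2.36 and -2.46 in the 10 weeks control. The changes were 0.17 ± 0.13 in ABH 4 weeks and -0.03 ± 0.37 in NBH 1 week. In NBH 4 weeks the dyes differed widely, at -0.07 with Cy3 and -1.13 with Cy5, and the Cy5 array was not well above background. That pair of readings does not fix the size of a change.

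Tlr7, a receptor for single-stranded RNA, is read by 2 probes that disagreed. The brighter one, which was used, read 0.62 and 0.85 in ABH 1 week and 0.56 and 0.70 in the 10 weeks control, a change of 0.11 ± 0.06 (1.08-fold). The dimmer one read -0.71 and -1.04 in ABH 1 week and -2.33 and -2.46 in the control, a change of 1.52 ± 0.13 (2.87-fold), and would have been called higher. In the channel without labeled RNA, 1 of the 16 spot readings of the dimmer probe was also well above background. In ABH 4 weeks the brighter and the dimmer probe gave -0.04 ± 0.13 and 0.27 ± 0.03, and in NBH 4 weeks 0.23 ± 0.02 and -0.04 ± 0.07. In NBH 1 week they gave -0.39 ± 0.34, with -0.15 from Cy3 and -0.63 from Cy5, and 0.28 ± 0.19. Both probes carry the same RefSeq accession, and which part of the transcript each one reads was not analyzed here. The change of Tlr7 in ABH 1 week was above 0 with both probes, but its size rests on the choice of probe.

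**Figure D2:**
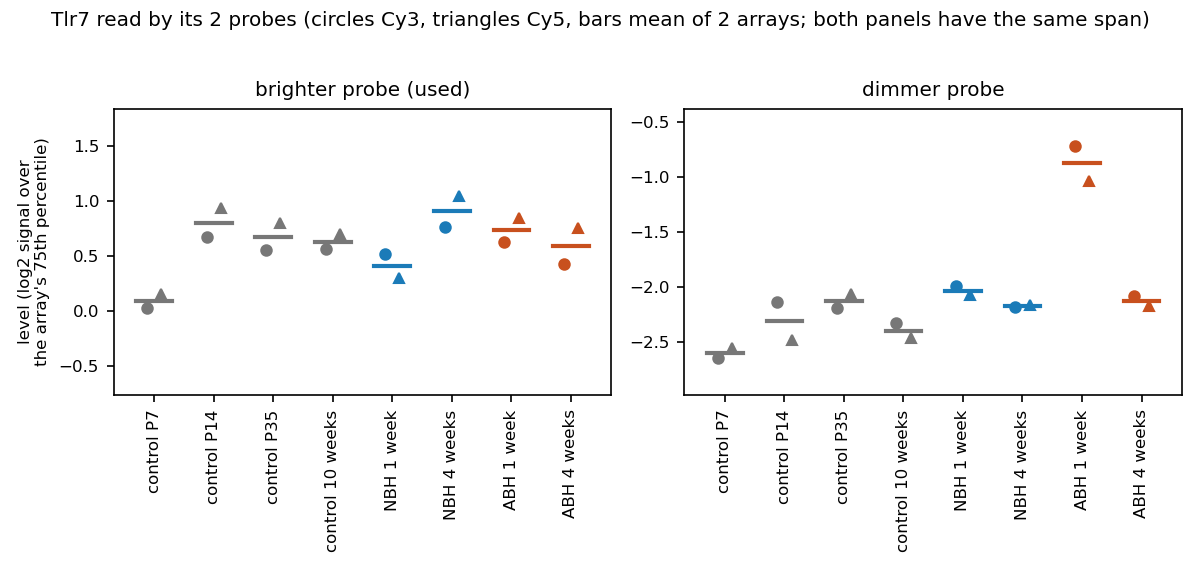
Levels of Tlr7 (y axis, log2 signal relative to the array's 75th percentile) in the 8 pools by its brighter probe (left) and its dimmer probe (right), with circles for Cy3, triangles for Cy5 and bars for the mean of the 2 arrays. The dimmer probe sets ABH 1 week apart, with -0.71 and -1.04, whereas with the brighter probe ABH 1 week (0.62 and 0.85) overlaps the control pools.

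Tlr9, the receptor for unmethylated CpG DNA, had the smallest range over the 8 pools, 0.27 between the lowest mean (P7, 1.74) and the highest (P35, 2.01). Its change was -0.15 ± 0.05 in ABH 1 week, -0.12 ± 0.21 in ABH 4 weeks, -0.09 ± 0.13 in NBH 1 week and -0.01 ± 0.02 in NBH 4 weeks. With median scaling the ABH 1 week value had the opposite sign, 0.10. Tlr8, a relative of Tlr7, was well above background only with Cy3 in NBH 1 week and with Cy5 in the 10 weeks control. The other array of the pool was not well above background either time, so no level of Tlr8 is compared.

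Myd88, the adaptor shared by most of these receptors, gave small changes with low spread. Its levels were -0.35 and -0.34 in ABH 1 week and -0.82 and -0.85 in the 10 weeks control, a change of 0.49 ± 0.03 (1.40-fold) that stayed under the limit. Myd88 is also printed in 10 spots, with an SD of 0.02 to 0.14 within an array. The lowest ABH 1 week spot (-0.52) lay above the highest spot of any other pool (-0.57). Spots are repeat readings of the same pool, so they do not measure the spread between animals. The changes were -0.02 ± 0.01 in ABH 4 weeks, 0.08 ± 0.03 in NBH 1 week and 0.10 ± 0.02 in NBH 4 weeks.

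Counted together, 4 of the 9 genes compared in ABH 1 week were called higher (Tlr1, Tlr2, Tlr13 and Cd14) and none lower. Of all 16320 genes compared there, 4.44% were called higher and 6.37% lower. Both dyes were above 0 for 8 of the 9, and the median change was 0.57 beside -0.08 over all genes. In ABH 4 weeks none of the 9 was called higher or lower, where 0.43% and 0.196% of 16294 genes were. Both dyes were above 0 for 5 of the 9, and the median was 0.17 beside 0.07. In NBH 1 week none was called, where 0.472% of 15469 genes were higher and 0.427% lower, and the median was 0.08 beside 0.06. In NBH 4 weeks none was called, where 0.214% of 15873 genes were higher and 0.75% lower, and the median was 0.05 beside 0.04. In both NBH comparisons and in ABH 4 weeks so few genes were called at all that no call among 9 genes is a share near the background. The ABH comparisons share the 10 weeks control, which is younger than both ABH pools, so that age difference and surgery cannot be told apart. Between 1 and 4 weeks after adult surgery the levels fell by 2.00 ± 0.17 for Tlr2, 0.97 ± 0.16 for Tlr1, 0.89 ± 0.03 for Tlr13, 0.80 ± 0.03 for Cd14 and 0.51 ± 0.01 for Myd88, with both dyes each time.

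**Figure D3:**
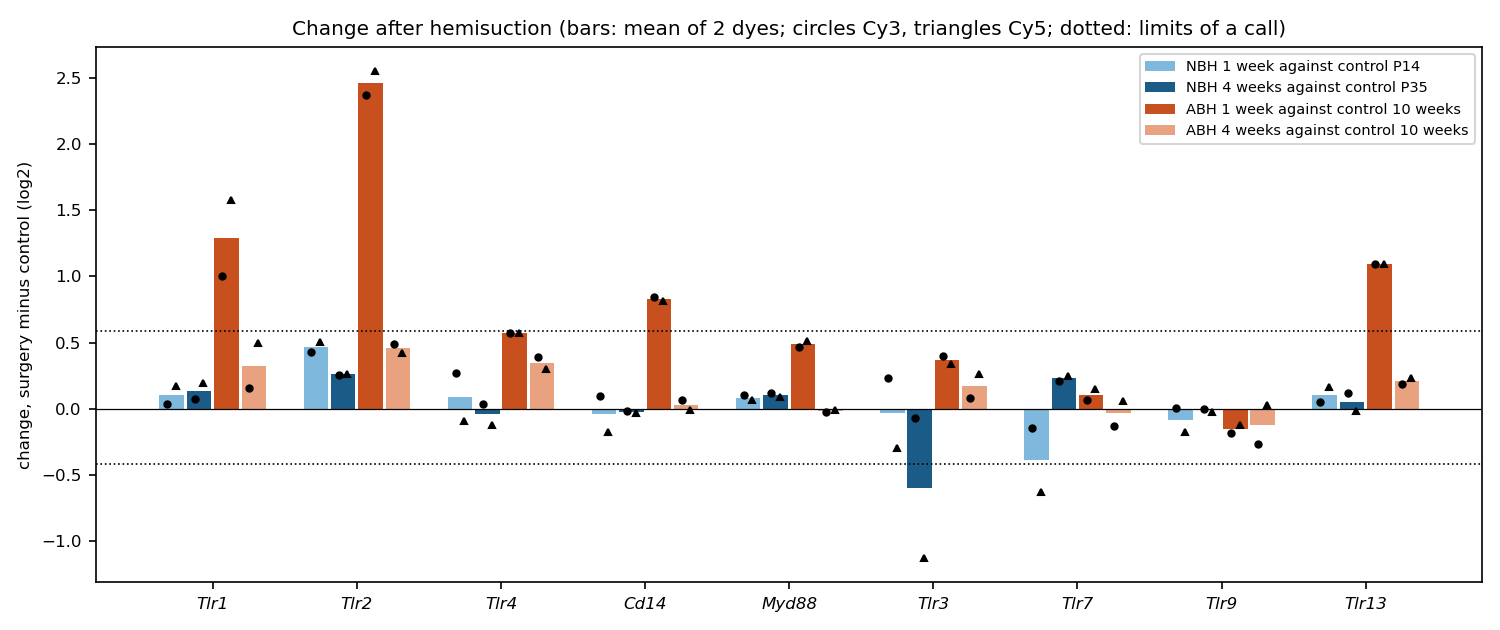
Change of the 9 genes compared (y axis, log2, surgery pool minus control pool) in the 4 comparisons, with bars for the mean of the 2 dyes, circles for Cy3, triangles for Cy5 and dotted lines at the limits of a call. Tlr2, Tlr1, Tlr13 and Cd14 pass the upper limit with both dyes in ABH 1 week, at 2.46, 1.29, 1.10 and 0.83, and no gene does in the other comparisons.

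The choice of scaling moved the ABH 1 week comparison as a whole. With the 75th percentile 725 genes were called higher and 1039 lower (41.1% of the calls higher), with the median as the scale 1266 and 313 (80.2%) and with quantile normalization 972 and 394 (71.2%). Median scaling raised the median of all genes by 0.26, from -0.08 to 0.18. Relative to that median the changes were the same under both scalings, 2.54 for Tlr2, 1.37 for Tlr1, 1.17 for Tlr13, 0.90 for Cd14, 0.65 for Tlr4, 0.56 for Myd88, 0.44 for Tlr3, 0.18 for Tlr7 and -0.08 for Tlr9. Tlr9 thus lay below the typical gene and the other 8 above it. In NBH 1 week the share of calls that were higher was 52.5%, 30.4% with median scaling, 31.5% with quantile normalization and 17.3% with the unscaled value table, and the median of all genes moved by -0.19 in the last. In NBH 4 weeks the shares were 22.2%, 10.5%, 12.9% and 2.99%, with a shift of -0.24 in the last, and in ABH 4 weeks 68.6%, 54.3%, 57% and 9.49%, with a shift of -0.17 in the last. Relative to the median of all genes, the median of the 9 genes stayed between -0.10 and 0.02 in NBH 1 week, -0.01 and 0.01 in NBH 4 weeks and 0.02 and 0.14 in ABH 4 weeks under these scalings.

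Between the P7 and 10 weeks controls, Tlr3 and Cd14 were called higher at 10 weeks, 2 of 9, and none lower, where 15.7% of 16367 genes were higher and 21.1% lower. Tlr3 was -3.40 and -3.56 at P7 and already -2.68 and -2.40 at P14. Its change from P7 to 10 weeks was 1.07 ± 0.04 (2.10-fold), and that of Cd14 was 0.81 ± 0.12 (1.75-fold). The values not called were 0.54 ± 0.01 for Tlr7 by its brighter probe, 0.32 ± 0.06 for Myd88 and 0.24 for Tlr9 and Tlr4. Tlr13 was nearly level at -0.04 ± 0.04, and Tlr2 and Tlr1 were lower at 10 weeks by both dyes, at -0.18 ± 0.05 and -0.46 ± 0.39, without a call. The median of the 9 genes was 0.24 beside 0.03 over all genes. Of the 10 microglia markers 5 were also called higher at 10 weeks than at P7, and their part in the changes of Tlr3 and Cd14 was not tested.

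Along the 8 pools, the neighbors in the order of levels were separated by both dyes and by more than their SD in 5 of 7 steps for Tlr2, Tlr13, Cd14 and Myd88, in 4 for Tlr1, Tlr4 and Tlr7, and in 1 for Tlr3 and Tlr9. For Tlr2, Tlr13 and the dimmer Tlr7 probe the widest step was the one from NBH 1 week to ABH 1 week, at 1.90, 0.85 and 1.16. Across the 8 pool means Tlr2 and Tlr13 had a Pearson correlation of 0.98 and Cd14 and Myd88 one of 0.94. Without the ABH 1 week pool these were 0.76 and 0.83 over 7 pools, whereas that of Tlr2 with Cd14 went from 0.77 to -0.11 and that of Tlr2 with Myd88 from 0.77 to -0.19. These values describe pools that share tissue, arrays and labeling, and they carry no p-value.

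Among 14468 genes well above background on all arrays, the genes most like Tlr2 over the 8 pools were Apobec1, Bcl2a1d and Slc37a2, with correlations of 0.992 to 0.996. The closest to Tlr13 were Slc7a7, Ptpn6 and Fyb (0.991 to 0.992), to Cd14 Upk1a, Itgb2 and Gngt2 (0.99 to 0.993) and to Myd88 Ifitm3, Il10rb and H2-Q6 (0.981 to 0.989). The closest to Tlr7 by its brighter probe were Acad10, Slc27a1 and Olfr1466 (0.95 to 0.954), and to Tlr9 Sec14l1, Grm2 and Hes7 (0.963 to 0.988). These genes were picked by likeness over the same 8 pools, so their changes in ABH 1 week follow from that choice and are no separate result. The changes were 1.65 to 2.60 for the genes closest to Tlr2 and Tlr13, 0.45 to 1.68 for Cd14 and 0.74 to 1.57 for Myd88. They were -0.07 to 0.02 for Tlr7 and -0.35 to -0.25 for Tlr9.

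The other genes of the pathway were described by lists. Over all genes compared, 4.44% were called higher and 6.37% lower in ABH 1 week. In the other surgery comparisons these shares were 0.214% to 0.472% and 0.196% to 0.75%. Of the 11 accessory proteins and chaperones compared in ABH 1 week, 7 were called higher and none lower, with a median of 1.00. The 4 with the largest change were the lipid scavenger receptor gene Cd36 (at least 4.81-fold, a bound since neither control array was well above background), Ly86, the partner of the Toll-like protein CD180 (3.78-fold), Lbp, which carries lipopolysaccharide to CD14 (2.89-fold), and Unc93b1, which escorts the nucleic acid receptors to endosomes (2.69-fold). Ly96, the MD-2 subunit of the TLR4 complex, gave 0.62 ± 0.21 and was not called. In the other 3 surgery comparisons no gene of this list was called.

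The 15 downstream adaptors and kinases compared had no call in ABH 1 week, and their median was 0.03. With 4.44% of all genes called higher and 6.37% lower there, no call among 15 lies near these shares. The adaptors and kinases had no call in the other surgery comparisons either, out of 14 compared each time. Among 12 transcription factors, Irf8 (3.06-fold), Irf7 (1.76-fold) and Irf5 (1.70-fold), which are interferon regulatory factors, were higher and the immediate early gene Fos was lower (0.683-fold), with a median of 0.30. The NF-κB subunits Nfkb1, Nfkb2 and Rela, at 0.28, 0.39 and 0.24, were not called. Fos was also lower in NBH 1 week (0.649-fold). Of 10 inhibitors, Socs3, a suppressor of cytokine signaling, was higher (2.00-fold), and the median was -0.0029.

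Of the 13 target genes compared in ABH 1 week, 6 were higher, all of them chemokine genes, and 1 lower. Over all genes 4.44% were higher and 6.37% lower. The median of the target genes was 0.39. The 4 with the largest change were Cxcl10 (15.2-fold), Ccl2 (8.61-fold), Ccl3 (at least 7.85-fold) and Ccl5 (6.64-fold). Il10 was called lower, with neither ABH 1 week array well above background. The cytokine genes Tnf, Il6 and Ifnb1 could not be compared at this signal, and Il1b gave 0.35 ± 0.02, with the control well above background on 1 of 2 arrays. In NBH 1 week Cxcl10 (2.73-fold) and Ccl2 (1.79-fold) were higher among 8 compared, each with the control well above background on 1 of 2 arrays, and in ABH 4 weeks Ccl3 (at least 2.04-fold) among 11. The genes of endogenous ligands had 3 calls among 7 in ABH 1 week, S100a8 (4.68-fold), S100a9 (4.28-fold) and Fn1 (2.67-fold), and S100a9 was higher in NBH 1 week too (2.03-fold). Of 11 other innate sensors, Ddx58 (2.26-fold), Zbp1 (1.99-fold), Sting1 (1.90-fold) and Casp1 (1.84-fold) were higher in ABH 1 week, with a median of 0.60. Of the remaining Toll-like receptors Tlr5, Tlr6 and Tlr12 could be compared there, and none was called.

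**Figure D4:**
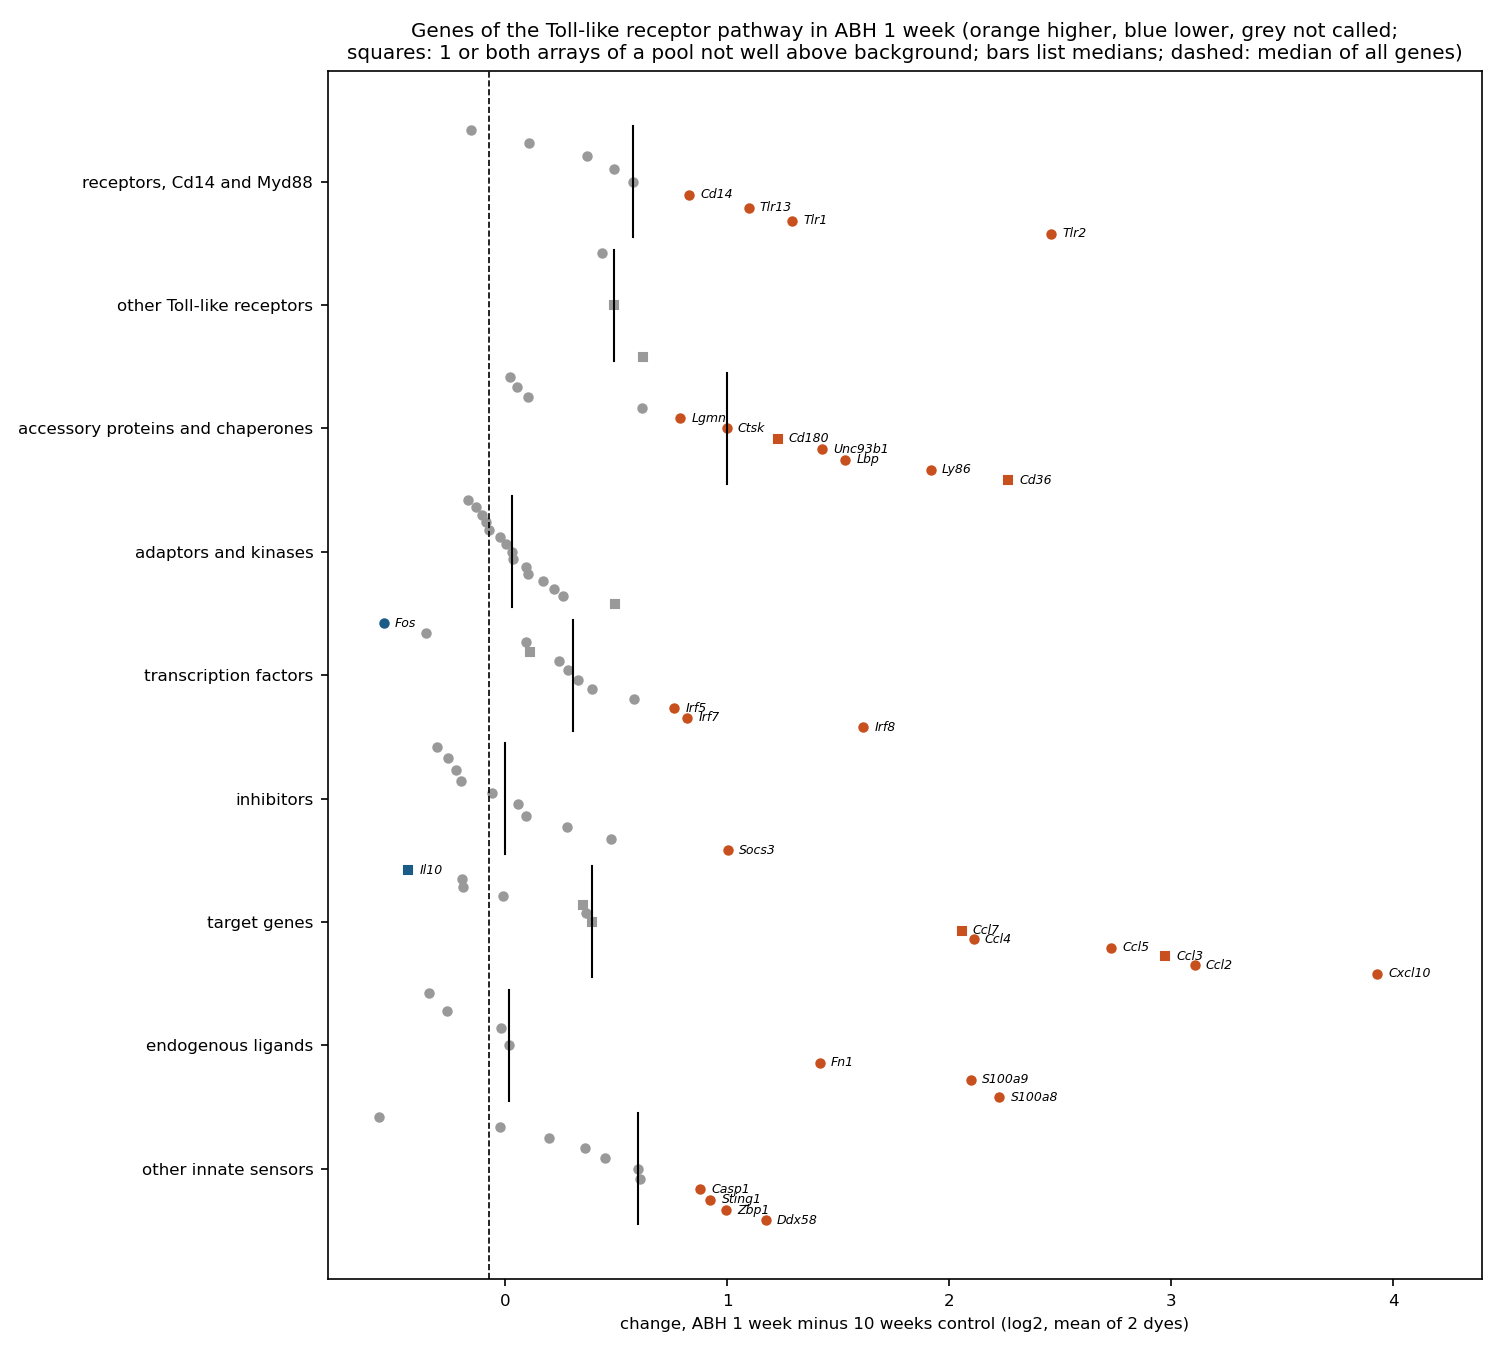
Change in ABH 1 week (x axis, log2, mean of the 2 dyes) of each gene compared in the pathway lists (y axis), with called genes named, squares where 1 or both arrays of a pool were not well above background, black bars at the list medians and a dashed line at the median of all genes. Accessory proteins (median 1.00) and other innate sensors (0.60) lie to the right of the dashed line (-0.08), and the adaptors and kinases (0.03) lie close to it.

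Markers of immune cells moved with these genes. Of 10 microglia markers, 5 were called higher in ABH 1 week, Cx3cr1 and Csf1r among them, where 4.44% of all genes were. The median change of these markers was 0.66. The mean level of the list was 3.23 in ABH 1 week, against 2.60 in the 10 weeks control and 1.82 to 2.79 in the other pools. Of 9 infiltrating and border macrophage markers compared, 5 (F13a1, Lyz2, Ms4a7, Pf4 and Msr1) were higher, with a median of 1.33, and the list's mean level was -1.13 against -2.78 to -2.39 in all other pools. Ccr2 and Msr1 were well above background with both dyes in ABH 1 week alone, and Cd163 in no pool. The neutrophil markers had no call among 6. Of the 8 in the list, 6 were well above background with both dyes in ABH 1 week. In the 10 weeks control 2 were, and in the other pools 2 or 3. Ltf, Mmp8 and Mmp9 were so in ABH 1 week alone, and Ngp and Cxcr2 in no pool. Of 6 astrocyte markers, 1 was called higher in each ABH comparison, the intermediate filament gene Gfap. Of all genes, 4.44% were called higher in ABH 1 week and 0.43% in ABH 4 weeks. Of 8 endothelial and meningeal markers, 3 were called higher in ABH 1 week, the meningeal genes Dcn, Lum and Col1a1, and 5 were not called. The mean level of that list was 1.28 in ABH 1 week, against 0.22 to 0.61 in the other pools. The part of these cell types in the changes of the receptors was not tested. In bulk tissue, more cells of a type and more RNA per cell cannot be told apart.

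Markers of the choroid plexus, the tissue in the ventricles that secretes cerebrospinal fluid, followed another pattern. They were higher in NBH 1 week (5 of 6), NBH 4 weeks (3 of 6) and ABH 4 weeks (6 of 6), and in ABH 1 week none of 4 was called. The shares of all genes called higher were 0.472%, 0.214%, 0.43% and 4.44% in that order. The mean level of the choroid plexus markers was -2.70 in ABH 1 week and -2.66 to -2.41 in the controls, against -1.08 to -0.36 in the other surgery pools. Tlr1, Tlr2, Tlr13 and Cd14 were called higher in ABH 1 week. The part of choroid plexus tissue in the levels of these genes was not tested. The 8 neocortical neuron markers, the check of the labeled tissue, were well above background in every pool.

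**Figure D5:**
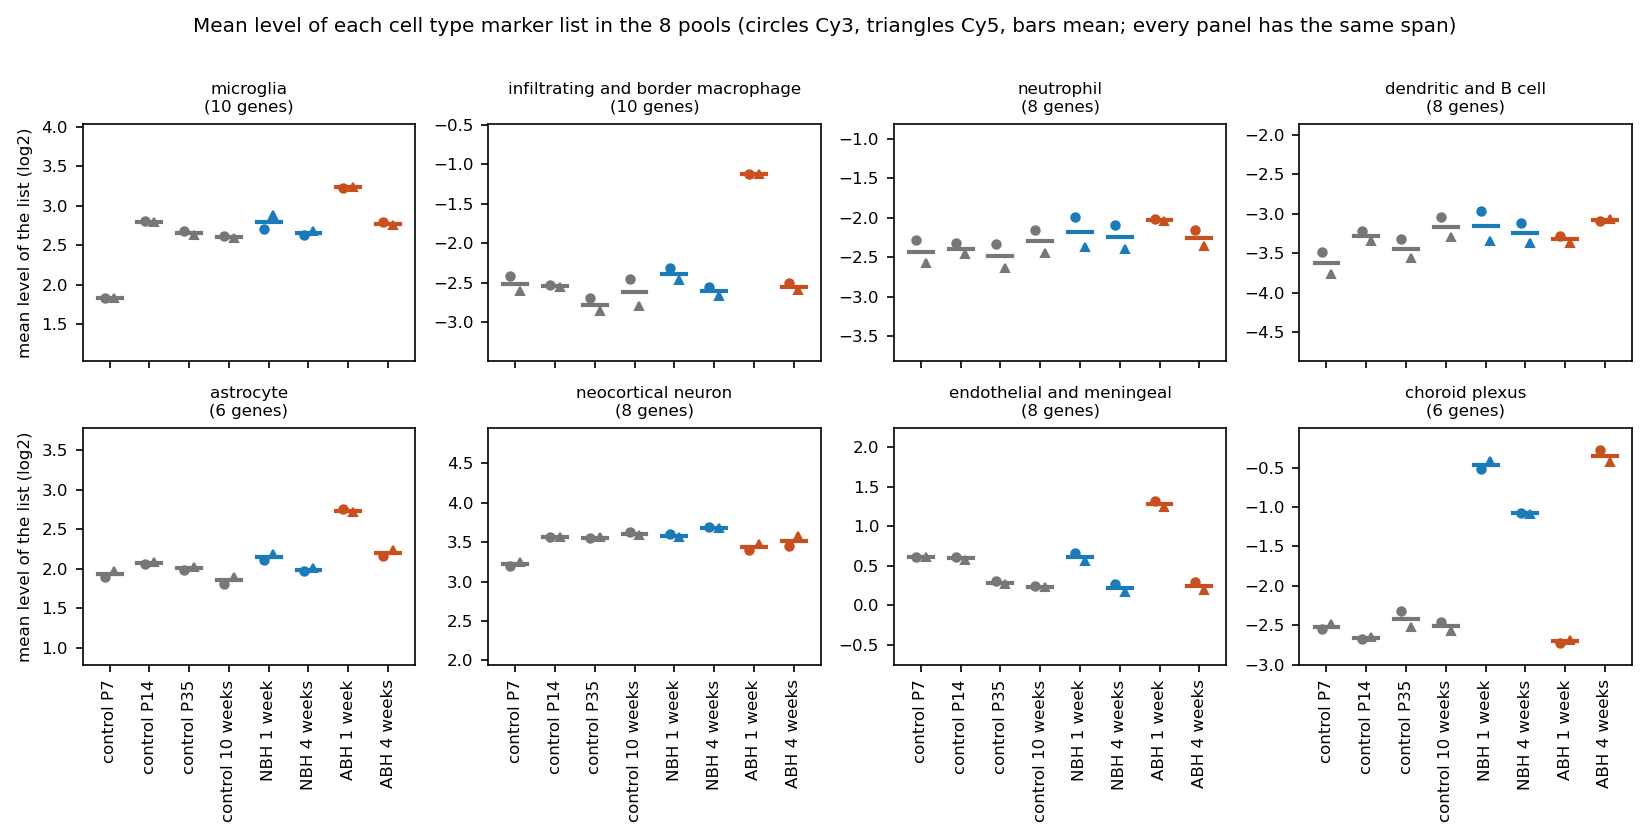
Mean level of each cell type marker list (y axis, log2 relative to the array's 75th percentile, mean over the genes of the list) in the 8 pools, with circles for Cy3, triangles for Cy5 and bars for the mean. Microglia (3.23) and macrophage markers (-1.13) are highest in ABH 1 week, whereas choroid plexus markers are highest in ABH 4 weeks (-0.36) and NBH 1 week (-0.47).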

How the data were processed

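RNA pools of mouse neocortex were hybridized by the authors to Agilent mouse whole genome 8 × 60 K arrays and quantified with Feature Extraction 11.0.1.1, with mm9 named in the file headers. The deposited files hold spot intensity in arbitrary units (median signal, local background and a processed signal), and a value table that repeats the processed signal, with differences of at most 0.497% above 100. Here the median signal of the labeled channel was corrected with normexp in limma 3.58.1 (R 4.3.3, offset 50), taken to log2 and centered on the 75th percentile of the 59305 gene spots of each array. Outlier spots (140 to 237 per array) and control spots were left out, spots of a probe were averaged, and probes were named by accession through a RefSeq table (GRCm38.p6, names only). Python 3.11.15, numpy 2.4.6, pandas 2.3.3 and matplotlib 3.10.9 were used. Between 60.2% and 72.2% of the gene spots were well above background per array and 0.988% to 2.05% were saturated, none of them spots of the 10 genes. The markers Csf3r and Snap25 were saturated on all arrays of a comparison. The microglia marker Siglech had the same level as the saturated Csf3r in the P14 control (5.69) and in the P35 control (5.53). Its changes from these controls are therefore limited by the ceiling. Other markers saturated on only part of the arrays are not listed. The number of arrays, 2 per pool, limits the precision. The offset shrinks the changes of dim genes such as Tlr1 and Tlr4.

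The genes, lists, limits and alternatives were chosen with earlier results of these data known. The limits of 1.5-fold and 0.75-fold are those that the authors' methods give for up- and down-regulated expression. Genes were named in the text if they were among the 10, if they were among the 4 largest calls of a pathway list in a surgery comparison, or if they were among the 3 closest over the pools to one of the 10 that was well above background on all 16 arrays. Other pathway and marker genes named in the text were chosen after their values were seen. In a pool not well above background with both dyes, a signal below the lowest one well above background on its array was raised to it, and others were kept. A fold against a pool with neither array well above background is a bound ("at least"). No test was used, since each condition is 1 pool. The calling steps were tested on simulated data. Ctss, Il12b and Clec7a had no value under the names used and are not analyzed here. Some marker genes are not reported here.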

Additional observations from a re-analysis of the deposited data

Results flagged for a closer look

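The brighter Tlr7 probe moved in opposite directions 1 week after adult and after neonatal surgery with both dyes, with ABH minus NBH changes differing by 0.49 (log2), and the dimmer probe did not do so. Myd88 did the same at 4 weeks, with a difference of -0.12, which is small beside the limit of a call. Neither difference was tested, because each condition is 1 pool. For Tlr13, 1 of 16 spot readings was well above background in the channel that held no labeled RNA, and so was 1 of 16 for the dimmer Tlr7 probe. The levels of both were not taken from that channel.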

How the results depend on the processing

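Tlr1, Tlr2 and Tlr13 were called higher in ABH 1 week under all 12 alternatives, and Cd14 under all except the 2-fold limits. Tlr4 was also called with the processed signal, the value table, an offset of 0, median scaling, quantile normalization and the P35 control, Myd88 with median scaling, and Tlr7 with the mean of its probes. The count in NBH 1 week was 1 with the processed signal (Tlr2), and 0 to 1 by single dye (Tlr8 with Cy3), and in ABH 4 weeks it was 1 with the processed signal (Tlr1). Lower calls came from Tlr8 in ABH 1 week without the filter and with Cy5 alone, and from Tlr7 in NBH 1 week and Tlr3 in NBH 4 weeks with Cy5 alone. The median change in ABH 1 week was 0.96 with the processed signal, 1.06 with the value table, 0.86 with an offset of 0, 0.83 with median scaling and with quantile normalization, 0.53 without the background filter, 0.61 against the P35 control and 0.81 with the mean of all probes, and 0.54 to 0.57 by single dye. That in NBH 1 week was -0.14 with the value table, -0.0726 with quantile normalization and -0.0896 to 0.0994 by single dye. In NBH 4 weeks it was -0.22 with the value table and -0.0193 to 0.0751 by single dye, and in ABH 4 weeks -0.0804 with the value table and 0.0811 to 0.1457 by single dye. Over all alternatives the number of all genes called higher ran from 357 to 1266 in ABH 1 week, 13 to 555 in ABH 4 weeks, 14 to 669 in NBH 1 week and 6 to 329 in NBH 4 weeks, and of those called lower from 22 to 2608, 1 to 966, 3 to 786 and 15 to 1266. The value table is not scaled between arrays. The causes of the other differences were not tested. Of 420 values of single genes, 312 moved by less than the SD of the dyes, 108 by more, and no called one changed sign. Normexp on the mean signal was not run, since the files used here have no mean signal column. Signal over background limits Tlr1, Tlr3, Tlr4 and Tlr8. No paired analysis was possible because the replicate numbers mark the dyes of 1 pool, comparisons were made dye by dye, and no result comes from a test.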
